A study of Mus musculus with 13 samples.

Results

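The 7 genes that encode the collagens of cartilage, Col2a1, Col9a1, Col9a2, Col9a3, Col11a1, Col11a2 and Col27a1, were followed in the developing intervertebral disc (IVD) and the adjacent vertebrae of mouse embryos. Every probe set whose annotated symbol was exactly one of these names was taken, which gave 12 probe sets of 45037, and 7 genes of 18193 with a value. Tissue had been cut by laser from frozen sagittal sections of the lumbar region at E13.5, and each sample was hybridized to its own Affymetrix mouse expression array. There were 4 arrays of mutant IVD (genotype Cre+;Tgfbr2lox/lox), 3 of control IVD (Cre-;Tgfbr2lox/wt), 3 of mutant vertebrae (written Cre+;Tgrbr2lox.lox in the labels) and 3 of control vertebrae (Cre-;Tgfbr2lox/wt). Both control tissues were taken from the same animals. Both genotypes carry at least 1 loxP-flanked allele of Tgfbr2, the type II receptor for TGF-β, and only the mutants carry Cre. Cre was driven by the Col2a promoter, so deletion was directed to cells that express a member of the gene group described here, and the controls had no Cre. By the study's histology, some notochord was captured along with the future annulus fibrosus, which made up most of each IVD sample.

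Type II collagen, a trimer of 3 identical Col2a1 chains, makes up the bulk of the thin fibrils of cartilage. Type XI collagen, built from Col11a1, Col11a2 and a further modified Col2a1 chain, lies within the fibril and limits its width, and type IX collagen, a trimer of Col9a1, Col9a2 and Col9a3, sits on the fibril surface. Col27a1 encodes a separate fibrillar chain with a short triple helix that is found in cartilage. In the embryonic spine the sclerotome gives rise both to vertebral cartilage, which lays down this matrix, and to the annulus, which becomes fibrous, and Sox9 with Sox5 and Sox6 drives many of these genes in chondrocytes.

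The upstream sequences are printed for Col9a2 and Col11a2, the pair of members with the highest Pearson's r over the arrays (0.957). That of Col11a1, the chain that shares a trimer with Col11a2 but followed it less closely, is printed too. Each is the 250 bases before the annotated start on the plus strand of GRCm38.p6, from RefSeq, at chr4:121039316-121039565, chr17:34038888-34039137 and chr3:114030290-114030539. Capitals mark GGGCGG, the GC box bound by Sp1-type factors, on either strand, and TATAAA.
Col9a2: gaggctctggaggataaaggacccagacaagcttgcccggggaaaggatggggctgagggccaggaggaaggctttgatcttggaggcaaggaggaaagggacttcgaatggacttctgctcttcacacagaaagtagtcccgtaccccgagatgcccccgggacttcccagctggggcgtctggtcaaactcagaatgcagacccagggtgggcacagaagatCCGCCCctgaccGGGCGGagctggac
Col11a2: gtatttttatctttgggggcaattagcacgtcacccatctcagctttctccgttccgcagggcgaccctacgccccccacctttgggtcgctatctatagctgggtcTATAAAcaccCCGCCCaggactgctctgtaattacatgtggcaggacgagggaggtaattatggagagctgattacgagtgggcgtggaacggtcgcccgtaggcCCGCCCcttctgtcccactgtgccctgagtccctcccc
Col11a1: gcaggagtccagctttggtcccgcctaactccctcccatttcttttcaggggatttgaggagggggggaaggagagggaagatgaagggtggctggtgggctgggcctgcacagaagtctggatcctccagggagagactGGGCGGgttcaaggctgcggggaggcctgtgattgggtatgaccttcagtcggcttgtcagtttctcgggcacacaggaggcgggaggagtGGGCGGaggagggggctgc
The table of upstream sequences held 6 windows for 5 of the members, Col9a1 having 2, and none for Col2a1 and Col9a3. GGGCGG or its complement CCGCCC was in 4 of the 6 windows, against 32.74% of all 32851 windows of that length, and TATAAA was in 1 of 6, against 12.37%. The SOX-type letters ACAAT and ACAAAG, searched on both strands, were in 0 of 6, against 27.66% and 16.46% of all windows. A match describes the letters and is not a binding site.

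Each value below is a log2 signal relative to that probe set's own median over the 13 arrays, so a value of 1 is a doubling over the median array and no level can be compared between genes. Genes with several probe sets were averaged. The signal over background is not known from these values. Tgfbr2 averaged 0.25 in mutant IVD, 0.14 in control IVD, -0.29 in mutant vertebrae and -0.05 in control vertebrae, and it was not known whether its probe sets lie in the deleted part, so these values do not check the genotype labels. Several arrays stood apart in markers of other tissues. The mean of 8 liver markers was 2.78 in mutant IVD 3, 3.65 in mutant IVD 4, 5.31 in control IVD 1 and 5.48 in control vertebrae 1, and at most 0.22 in the other arrays. Skeletal muscle markers (12 genes) reached 2.37 in mutant IVD 4 and 2.23 in control IVD 1, and neuron markers (15 genes) reached 2.99 in mutant IVD 3 and 2.40 in control vertebrae 3. Mutant IVD 3 also went against its tissue label. The mean of 7 annulus and sclerotome markers was -1.32 there, against 0.70 to 1.67 in the other IVD arrays and -1.37 to 0.01 in the vertebrae. Several results on the members are therefore also given without this array. The lists, the correlations and most differences of single members are given only with it. Xist and the Y-linked genes Eif2s3y, Kdm5d and Uty marked all control arrays, mutant IVD 3 and mutant vertebrae 3 as female and the other mutant arrays as male.

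The first question was whether the cartilage collagens separate the 2 tissues. All 7 members were lower on average in IVD than in vertebrae over both genotypes (51.7% of all genes were), by a median of 0.87 on the log2 scale (the median of all genes was -0.0071), and Col9a3, a type IX chain, fell past the threshold of an adjusted p under 0.05. With limma over all genes, 1 of 7 members was called, against 0.275% of all genes (50 genes, 28 higher and 22 lower), and at an unadjusted p under 0.05 it was 5 of 7 lower, against 3.5% of all genes. Without mutant IVD 3 the median difference was -0.98, with 1 of 7 members and 1.13% of all genes called. Fewer cells of a type and less RNA per cell cannot be told apart in such bulk samples. The plot of array values sets out the members by group.

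**Figure D1:**
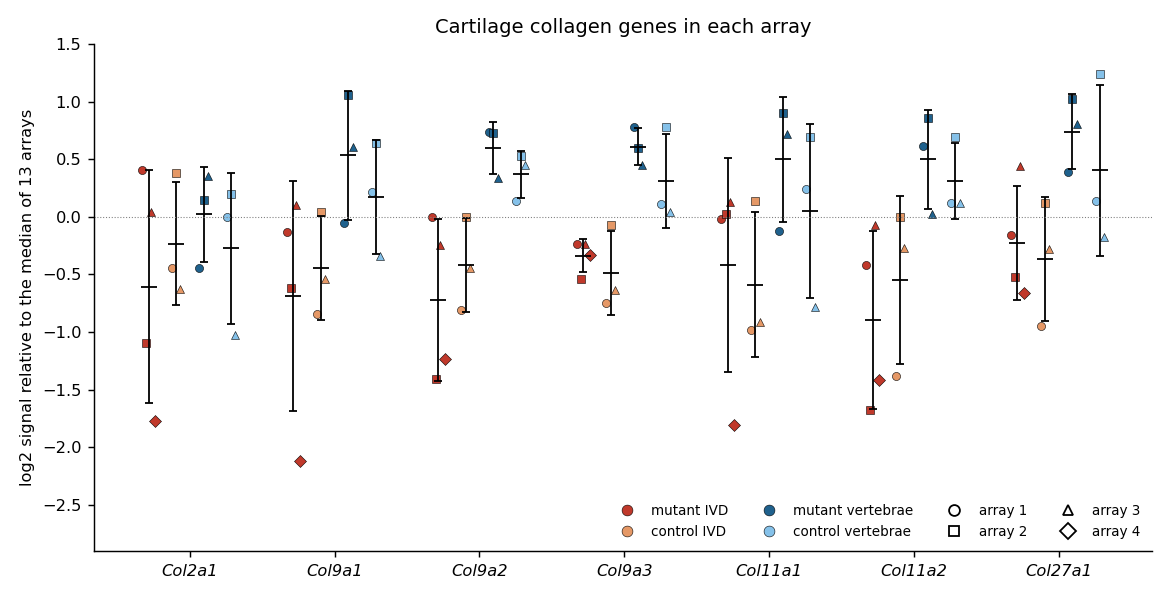
Log2 signal of each cartilage collagen gene relative to the median of the 13 arrays (vertical axis), with a point per array, point shape for the array number, and a bar for the group mean with its SD (n = 4 mutant IVD, 3 in each other group). For Col9a2, Col9a3 and Col11a2 every IVD point lies below every vertebrae point, whereas for the other 4 genes the tissues overlap.

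Among the chains of type IX collagen, Col9a3, an average of 3 probe sets, gave the tightest values. Taken singly, its probe sets had limma SEs of 0.18, 0.22 and 0.25 for the tissue difference over both genotypes. The SE was 0.24 for Col9a2, which has 1 probe set. Col9a3 measured -0.24, -0.54, -0.24 and -0.33 in mutant IVD and -0.75, -0.073 and -0.64 in control IVD. In vertebrae it measured 0.78, 0.60 and 0.45 in mutants and 0.11, 0.78 and 0.044 in controls. The tissues did not overlap, the nearest arrays being control IVD 2 and control vertebrae 3. The difference was -0.87 (SE 0.15, 95% interval -1.21 to -0.54), which is 0.546-fold, with a limma adjusted p of 0.0468. The call is close to the threshold. It was kept without mutant IVD 3 (adjusted p = 0.0258, with 206 genes or 1.13% called) and was lost when any of the other 12 arrays was left out.

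Col9a2 measured 0, -1.40, -0.25 and -1.23 in mutant IVD and -0.81, -0.0034 and -0.44 in control IVD. It measured 0.73, 0.72 and 0.34 in mutant vertebrae and 0.14, 0.52 and 0.45 in control vertebrae. Again every IVD array was below every vertebrae array, but the IVD arrays were spread widely, 2 of the 4 mutant arrays lying far below the others. The difference was -1.05 (SE 0.24, 0.482-fold) with an adjusted p of 0.114, and without mutant IVD 3 it was -1.13 with an adjusted p of 0.0505. Col9a1, the third chain, measured -0.13, -0.62, 0.10 and -2.12 in mutant IVD and -0.85, 0.042 and -0.54 in control IVD. In vertebrae it measured -0.056, 1.05 and 0.60 in mutants and 0.21, 0.64 and -0.34 in controls. The tissues overlapped for this chain, and mutant IVD 4 was lower than every other array. The difference was -0.92 (SE 0.35, 0.528-fold, adjusted p = 0.437).

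Col11a2, the α2 chain of type XI collagen, gave the most negative difference of the group. Its values were -0.42, -1.68, -0.075 and -1.41 in mutant IVD and -1.38, 0 and -0.27 in control IVD. They were 0.62, 0.86 and 0.025 in mutant vertebrae and 0.12, 0.69 and 0.12 in control vertebrae. The highest IVD array lay just under the lowest vertebrae array, so the tissues did not overlap, although several arrays were near 0. The difference was -1.13 (SE 0.31, 0.458-fold, adjusted p = 0.197). Its partner Col11a1 measured -0.019, 0.026, 0.13 and -1.80 in mutant IVD, and -0.98, 0.13 and -0.92 in control IVD. It measured -0.12, 0.90 and 0.72 in mutant vertebrae, and 0.24, 0.69 and -0.78 in control vertebrae. Here 3 mutant IVD arrays lay close to 0 and mutant IVD 4 far below them, and the tissues overlapped. The difference was -0.78 (SE 0.37, 0.583-fold, adjusted p = 0.592).

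Col2a1, the chain of the main fibril, differed least between the tissues. It measured 0.41, -1.10, 0.042 and -1.77 in mutant IVD and -0.44, 0.38 and -0.63 in control IVD. It measured -0.44, 0.15 and 0.36 in mutant vertebrae and 0, 0.20 and -1.02 in control vertebrae. The highest arrays of both tissues were alike, and mutant IVD 2 and 4 lay below every vertebrae array. The difference was -0.29 (SE 0.36, 95% interval -1.08 to 0.49, 0.817-fold, adjusted p = 0.885). Col27a1 measured -0.16, -0.53, 0.44 and -0.66 in mutant IVD and -0.94, 0.12 and -0.28 in control IVD. It measured 0.39, 1.02 and 0.81 in mutant vertebrae and 0.14, 1.24 and -0.17 in control vertebrae. All 3 mutant vertebrae and control vertebrae 2 were high, while mutant IVD 3 was the only mutant IVD array above 0. The difference was -0.87 (SE 0.27, 0.548-fold, adjusted p = 0.279).

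Over both genotypes, 3 of the 7 members were lower in IVD with no overlap between the 7 IVD and 6 vertebrae arrays, against 0.165% of all genes. The control IVD and vertebrae came from the same mice, but the series' description does not say which numbers belong together. Same-numbered control arrays were taken as pairs because their deviations correlated in these data (0.801, 0.569 and 0.567). Both arrays of number 1 had liver transcripts. A fit over all arrays with the control numbers as a random block was added after seeing the data. In it Col9a2 (adjusted p = 0.018), Col9a3 (adjusted p = 0.0045) and Col11a2 (adjusted p = 0.0491) were called lower, against 0.654% of all genes called lower. Leaving out control IVD 1 and mutant IVD 4, which had skeletal muscle transcripts and the lowest mean collagen values of their groups, gave -0.81 for Col9a3 with an adjusted p of 0.193, and leaving out the 4 arrays with liver transcripts gave -0.88 with an adjusted p of 0.143. Muscle markers were higher in IVD than in vertebrae for 11 of 12 genes (median 0.63, none called), with array means of -0.18 to 2.37 in IVD and -0.29 to 0.70 in vertebrae. With the mean of these markers as a covariate the Col9a3 difference was -0.82 with an adjusted p of 0.106.

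**Figure D2:**
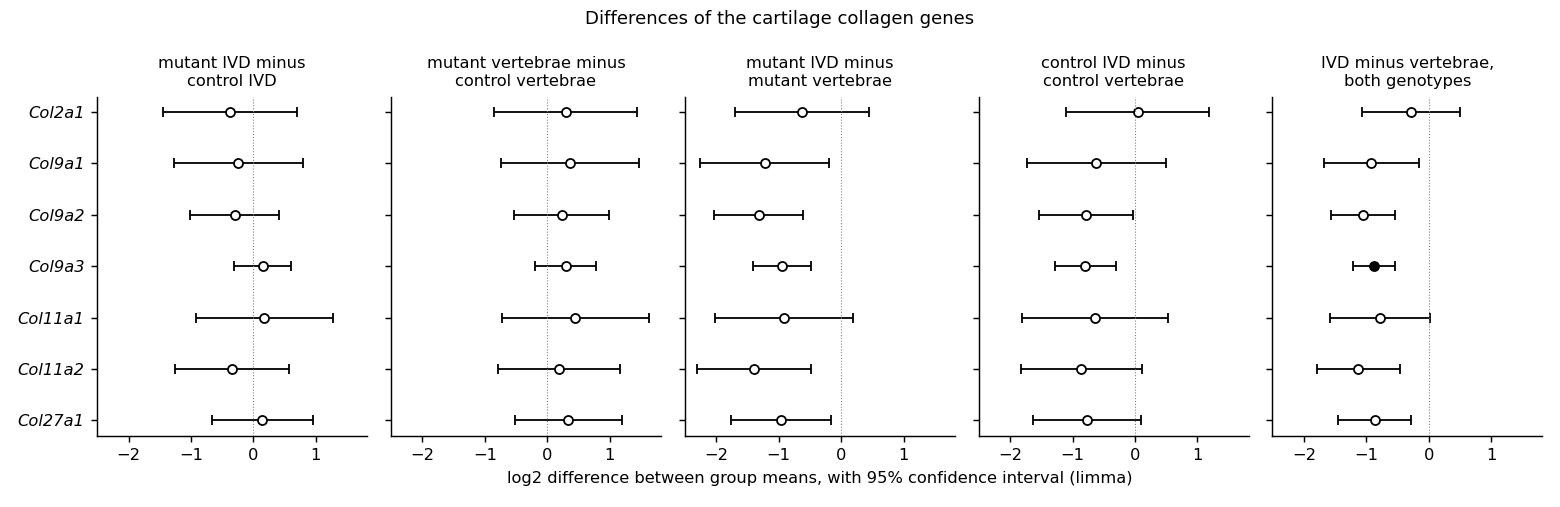
Log2 differences between group means (points) with 95% confidence intervals from limma (bars) for each cartilage collagen gene in 5 comparisons; a filled point marks an adjusted p under 0.05. The tissue differences lie mostly below 0, with only Col9a3 over both genotypes filled, and all genotype intervals span 0.

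In mutant embryos the tissue difference had the same sign for each member. All 7 were lower in mutant IVD than in mutant vertebrae (49.9% of all genes were), by a median of 0.97, with 5 of 7 at an unadjusted p under 0.05 against 3.26% of all genes lower at that level. None passed the adjusted threshold, at which 5 genes (0.0275%) were called. Col9a3 differed by -0.95 (SE 0.21, adjusted p = 0.175), Col9a2 by -1.32 (SE 0.33, adjusted p = 0.223), Col11a2 by -1.40 (SE 0.42, adjusted p = 0.334) and Col9a1 by -1.22 (SE 0.48, adjusted p = 0.5). Of the 7, Col9a2, Col9a3 and Col11a2 did not overlap, against 2.95% of all genes. Without mutant IVD 3 the median was -1.19, and 109 genes (0.599%) but no member were called, Col9a2 being nearest to the threshold (adjusted p = 0.0989). By the unequal variance test that the methods name, 4 of 7 members and 4.61% of all genes were under 0.05, and no gene was called after adjustment. Beside these values, all 15 neuron markers (median 1.03), all 8 liver markers (median 1.53), all 9 endothelium markers (median 0.27) and 11 of 12 muscle markers (median 0.65) were higher in mutant IVD, none called. The neuron mean was 2.99 in mutant IVD 3, -0.74 to 0.61 in the other mutant IVD arrays and -0.86 to 0.42 in mutant vertebrae. The liver mean was 2.78 in mutant IVD 3, 3.65 in mutant IVD 4 and at most 0.22 in the other mutant arrays. The muscle mean was 2.37 in mutant IVD 4 and -0.18 to 0.20 in the other mutant IVD arrays. The part of these markers in the collagen values was not tested.

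In control embryos 6 of 7 members were lower in IVD than in vertebrae (52.2% of all genes were), by a median of 0.77 over the 7, and Col2a1 differed by 0.042 (95% interval -1.10 to 1.19). Col9a3 differed by -0.80 (SE 0.23) and Col9a2 by -0.79 (SE 0.35), which made 2 of 7 lower at an unadjusted p under 0.05, against 1.07% of all genes. With limma no gene of the 18193 was called, although 487 (2.68%) had an unadjusted p under 0.05. Col9a2, Col9a3 and Col11a2 did not overlap, against 3.84% of all genes. Within the 3 control numbers, the difference of Col9a3 was -0.86, -0.85 and -0.68, and that of Col9a2 was -0.95, -0.53 and -0.89. For Col11a2 it was -1.501, -0.69 and -0.39, and for Col2a1 it was -0.44, 0.18 and 0.39. As an average of 3 probe sets Col9a3 was thus nearly the same in each number, and Col2a1 changed sign. In all, 6 of 7 members were lower in IVD in all 3 numbers, against 17.5% of all genes. With the number as a random block over the control arrays alone, 66 genes (0.363%) were called but no member (Col9a2 adjusted p = 0.0948, Col9a3 adjusted p = 0.0995). Over all arrays the same kind of block called 238 genes (1.31%), and Col9a3 was among them (adjusted p = 0.0094). Markers of other tissues also differed in sign here: all 15 neuron markers (median -0.84), all 9 erythroid markers (median -0.39) and all 8 liver markers (median -0.13) were lower in control IVD and 10 of 12 muscle markers higher (median 0.46), none called. The neuron mean was 2.40 in control vertebrae 3, and in number 1 it was higher in IVD (0.64) than in vertebrae (0.33). The muscle mean was 2.23 in control IVD 1 and -0.18 and -0.087 in the other control IVD arrays. The part of these markers in the collagen values was not tested.

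**Figure D3:**
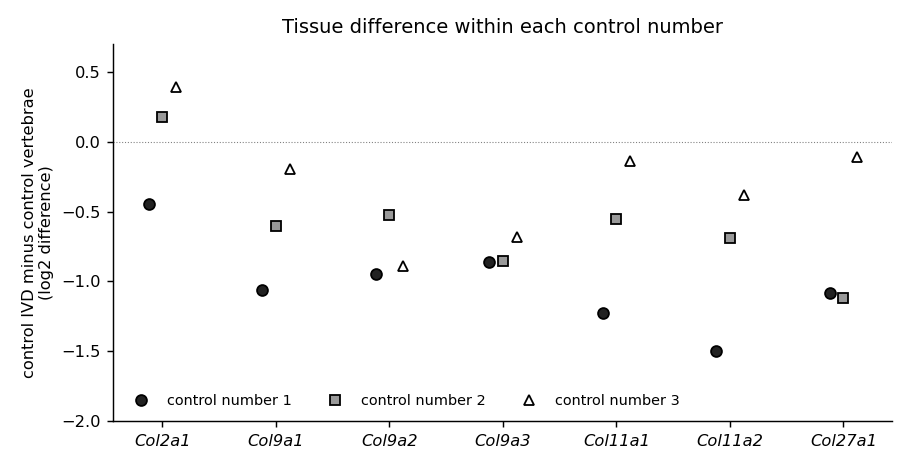
Log2 difference of control IVD minus control vertebrae (vertical axis) within each of the 3 control numbers (point shapes) for the 7 genes, with no error bar because each point is a difference of 2 arrays. Col9a3 lies between -0.86 and -0.68, and Col2a1 is the gene with points on both sides of 0.

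The second question was whether loss of Tgfbr2 from Col2a-expressing tissue shifts these genes in the disc. In mutant against control IVD, 4 members were lower (41.8% of all genes were) and 3 higher, with a median of -0.24 against 0.037 for all genes, and the groups overlapped for all 7. Differences ran from -0.37 for Col2a1 (SE 0.49, 95% interval -1.44 to 0.70) to 0.17 for Col11a1 (SE 0.50, 95% interval -0.93 to 1.27). Col9a3, an average of 3 probe sets, had the narrowest interval, -0.31 to 0.61 about 0.15. Every adjusted p of a member was 0.99989, and with limma no gene at all was called (0%), while 547 genes (3.01%) had an unadjusted p under 0.05. Single arrays set the sign of several members. Without mutant IVD 4 the members' median was 0.15, and without mutant IVD 3, the array whose annulus markers were low, it was -0.46 with 6 of 7 lower. With the Y-linked genes as a covariate, since all control arrays and 1 of the 4 mutant IVD arrays were female by their transcripts, Col2a1 was 0.074 and Col9a1 was 0.048. No control array was male, and among the IVD arrays only mutant IVD 3 separates sex from genotype. Effects of sex and genotype can therefore not be told apart here, with or without this covariate. Beside these values, all 15 neuron markers were higher in mutant IVD (median 0.81) and 5 of 7 annulus and sclerotome markers lower (median -0.71), none called. Mutant IVD 3 stood apart in both lists, with a neuron mean of 2.99 and an annulus mean of -1.32. The neuron mean was -0.74 to 0.61 in the other mutant IVD arrays and -0.87 to 0.64 in control IVD. The annulus mean was 0.70 to 1.49 in the other mutant IVD arrays and 0.84 to 1.67 in control IVD. The part of these markers in the collagen values was not tested.

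In the vertebrae all 7 members were higher in mutants than in controls, by 0.19 (Col11a2) to 0.45 (Col11a1), with a median of 0.30 (0.094 to 0.61 over the alternatives), and 56.1% of all genes were higher in this comparison. None was called, with 0 of 18193 genes (0%) called by limma and 459 (2.52%) at an unadjusted p under 0.05. Col9a3 had the smallest unadjusted p of the members, with a difference of 0.30 (95% interval -0.19 to 0.79). All members overlapped between the groups. By their transcripts mutant vertebrae 1 and 2 were male and all control vertebrae female, so effects of sex and genotype cannot be told apart here either. Beside the collagen values, all 15 neuron markers, all 8 liver markers and 8 of 9 erythroid markers were lower in mutant vertebrae (medians -1.06, -1.68 and -1.19, none called). The neuron mean ran from -0.86 to 0.42 in mutants and from -0.64 to 2.40 in controls, control vertebrae 3 being the highest. The liver and erythroid means were 5.48 and 3.03 in control vertebrae 1. In the other control vertebrae the liver mean was -0.20 and 0.029, and the erythroid mean -0.24 and 0.0082. In mutants they ran from -0.23 to 0.22 and from -0.68 to 0.26. The part of these markers in the collagen values was not tested. The difference of the tissue differences between genotypes was below 0 for all 7 members and 49.1% of all genes (median -0.53, from -0.67 for Col2a1 to -0.15 for Col9a3), with a smallest adjusted p of 0.9999. No gene was called for it (0%), and 255 genes (1.4%) had an unadjusted p under 0.05. Without mutant IVD 3 the members' median for it was -0.69, and again no gene was called. Effects of sex and genotype cannot be told apart in it either. Whether the tissue difference is larger in mutants was thus not resolved, the intervals of single members being as wide as -2.24 to 0.90 for Col2a1.

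The separate probe sets gave the same direction for the tissues. Over both genotypes all 12 were lower in IVD, 8 of them at an unadjusted p under 0.05 against 4.02% of all probe sets, and none of the 12 was called, against 0.104% of 45037. The 3 probe sets of Col9a3 differed by -1.06 (1460693_a_at, adjusted p = 0.112), -1.03 (1460734_at, adjusted p = 0.183) and -0.52 (1420280_x_at, adjusted p = 0.374), so its call rests on their average. The suffix of the last marks a probe set whose probes can also match other transcripts. For Col9a1 the pair differed by -1.18 (1421381_a_at) and -0.67 (1428571_at), for Col27a1 by -1.07 (1453191_at) and -0.67 (1429549_at), and for Col11a1 by -0.78 with each. Only for Col11a1 were all probe sets of a gene nearly equal over both genotypes, though 1460693_a_at and 1460734_at of Col9a3 were also close. By genotype the Col11a1 pair (1418599_at and 1449154_at) differed by -0.83 and -1.01 in mutants and by -0.73 and -0.54 in controls.

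**Figure D4:**
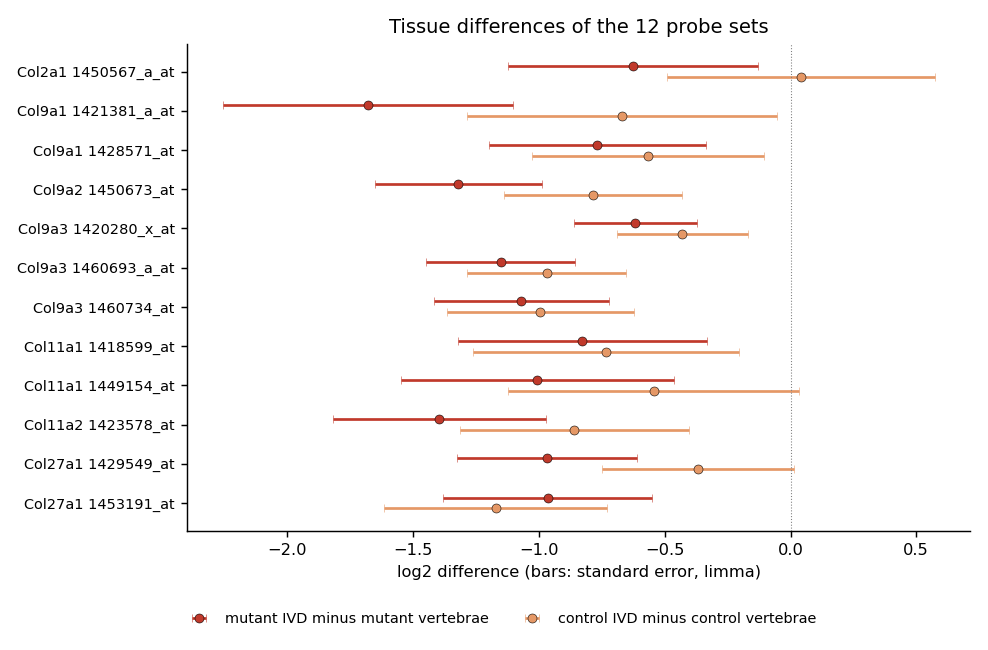
Log2 difference between IVD and vertebrae for each of the 12 probe sets (points) with the limma standard error (bars), in mutants and in controls. All 12 lie below 0 in mutants and 11 of 12 in controls, the exception being the Col2a1 probe set at 0.042.

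The members did not vary as a single block. Their residual SD within groups ran from 0.28 for Col9a3, an average of 3 probe sets, to 0.75 for Col11a1, an average of 2. The median over all genes was 0.29. Over the 13 arrays, which share group, mouse and other tissue, Pearson's r as a description between pairs of members ran from 0.418 (Col2a1 with Col9a3, Spearman's rho 0.445) to 0.957 (Col9a2 with Col11a2, rho 0.934), with a median of 0.798 over 21 pairs. Col9a1 followed Col11a1 (r = 0.938, rho 0.929). Both of these pairs join chains of different collagens, and for partners within a trimer r was 0.634 for Col11a1 with Col11a2 and, within type IX, 0.674 for Col9a1 with Col9a3, 0.79 for Col9a1 with Col9a2 and 0.839 for Col9a2 with Col9a3. After group means were removed r was 0.9 for Col9a2 with Col11a2 and 0.947 for Col9a1 with Col11a1. Without the 2 arrays farthest from the median of the first gene, r was 0.907 for Col9a2 with Col11a2, 0.877 for Col9a1 with Col11a1, 0.939 for Col9a2 with Col9a3 and 0.34 for Col11a1 with Col11a2, so the order of the pairs changed and the last relation rests largely on those arrays. Col9a1 with Col27a1 (r = 0.854) was the highest pair by rho (0.962) and by r without the 2 farthest arrays (0.95). Members were also set against the mean of the other members in the same array, which compares departures from the median array and not levels. On this scale Col2a1, with 1 probe set, was 0.07 ± 0.42 in IVD (SD, n = 7) and -0.55 ± 0.33 in vertebrae (SD, n = 6). The ranges overlapped, at -0.51 to 0.57 in IVD and -0.91 to -0.13 in vertebrae. Col11a2 was -0.28 ± 0.42 in IVD and 0.07 ± 0.35 in vertebrae on the same scale.

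Within groups the members moved with particular arrays. Control IVD 2 and control vertebrae 2 were the highest of their groups for all 7 members, and control IVD 1 and control vertebrae 3 were the lowest for 6 of 7. Mutant IVD 4 was lowest for 4 members, and mutant IVD 3 was highest for 5. The mean of the 7 was -0.88 in control IVD 1 and -1.33 in mutant IVD 4, the arrays with muscle and liver transcripts, and -0.24 in control vertebrae 3, which had the neuron transcripts. It was 0.14 in control vertebrae 1, the array with the highest liver value, and 0.022 in mutant IVD 3, which had the highest neuron value and was the highest of its group. In mutant IVD 2 it was -0.83 with liver, muscle and neuron means of -0.22, 0.055 and -0.74. Chondrocyte markers (10 genes that include no member) were -1.76 in mutant IVD 4, -1.42 in control IVD 1, 0.19 in mutant IVD 3 and -0.66 to -0.12 in the other IVD arrays, against 0.0064 to 1.36 in vertebrae, so that mutant IVD 3 lay within the range of the vertebrae. The 3' minus 5' signal of Gapdh, a measure of RNA integrity, was highest in mutant IVD 4 (1.40). It was 1.14 in mutant vertebrae 1, 1.10 in mutant IVD 1 and -0.47 to 0.49 elsewhere. That of Actb was highest in mutant IVD 4 (0.72) and mutant vertebrae 2 (0.68). The mean of the 7 was 0.27 in mutant vertebrae 1, 0.76 in mutant vertebrae 2 and -0.080 in mutant IVD 1. The part of these markers, of other tissues and of RNA integrity in the spread of the members was not tested.

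**Figure D5:**
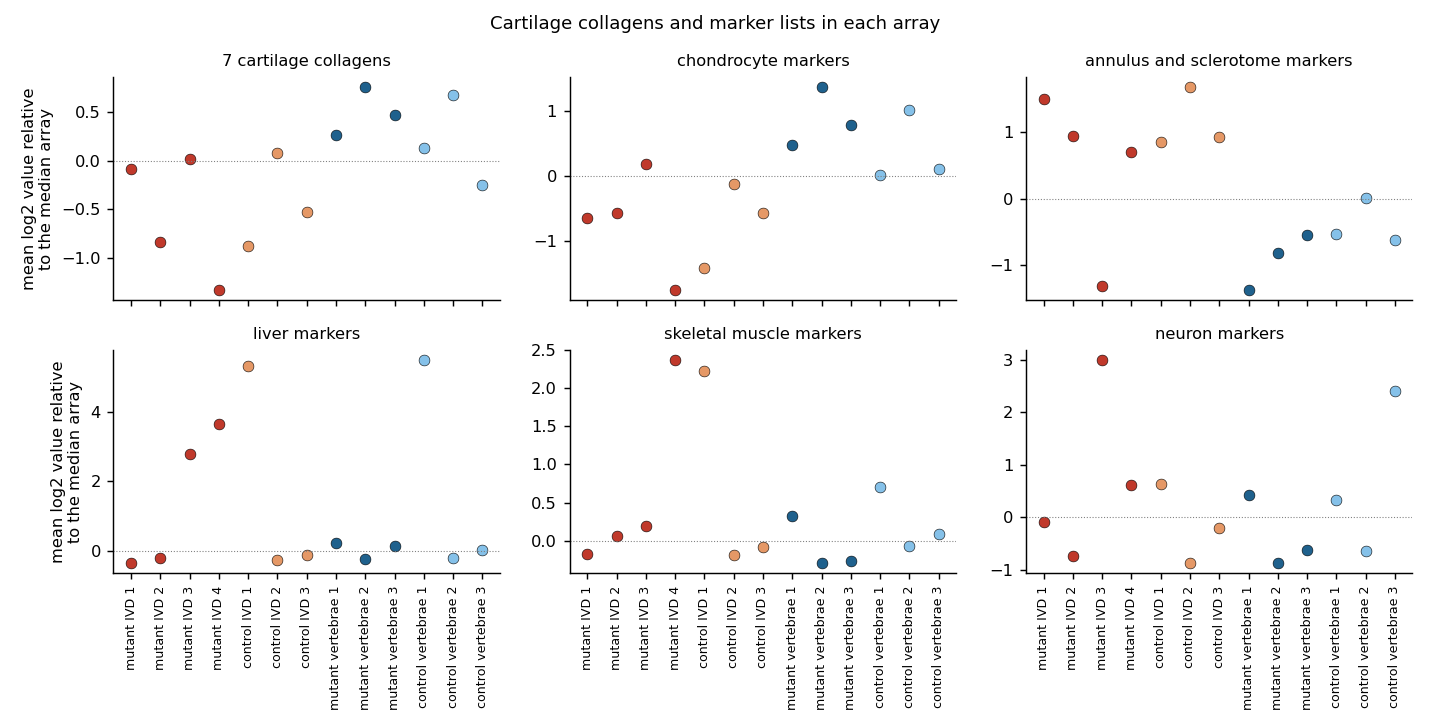
Mean log2 value, relative to the median array, of the 7 cartilage collagens and of 5 marker lists (panels) in each of the 13 arrays (points, coloured by group: mutant IVD, control IVD, mutant vertebrae, control vertebrae); no error bars are drawn. The collagen mean is lowest in mutant IVD 4 (-1.33) and control IVD 1 (-0.88), the arrays with the highest muscle values. It is next lowest in mutant IVD 2 (-0.83), where the muscle mean is 0.055. Annulus markers are low in mutant IVD 3 (-1.32).

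Genes that act with these collagens were examined in lists, again as IVD against vertebrae over both genotypes. Over all 18193 genes in this comparison 51.7% were lower and 8792 genes were higher. Of all genes 0.275% were called, and 3.5% were lower at an unadjusted p under 0.05. Of 18 cartilage matrix partners 14 were lower (median -0.71), 1 of them called and 8 at an unadjusted p under 0.05, and 1 of the 4 that were higher was under 0.05 (Fmod, fibromodulin, at 1.53). The called gene was Matn1, a matrilin that bridges fibrils, which fell by 3.32 (SE 0.57, adjusted p = 0.0444). Snorc, a chondrocyte proteoglycan, was -1.60 (adjusted p = 0.0622), and Comp, which binds type II and type IX collagen, was -3.11 (adjusted p = 0.101), both named after their values were seen. Of 12 transcription factors 7 were lower, a share near that of all genes, and 1 was called. Foxa3, a forkhead factor that acts with Foxa2 in late chondrocytes of mice, fell by 1.83 (SE 0.28, adjusted p = 0.0311). Foxa2 was -1.19 (adjusted p = 0.137), and Sox9, which activates the members in chondrocytes, was -0.52 (adjusted p = 0.265), again named after their values were seen. Matn1, Comp and Sox9 also stand among the chondrocyte markers, all 10 of which were lower in IVD (median -1.01), and Foxa2 among the notochord markers, of which 4 of 6 were lower (median -0.12).

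Of 20 enzymes that modify and fold collagen chains, 15 were lower and 5 higher in IVD (median -0.31), against 51.7% of all genes lower. Of these enzymes 0 were called. At an unadjusted p under 0.05 there were 4 lower and 1 higher, against 3.5% of all genes lower at that level. P3h2, a prolyl 3-hydroxylase, was 1.19 (adjusted p = 0.12), Colgalt2, which adds galactose to hydroxylysine, was -0.89 (adjusted p = 0.172), and P4ha3, a prolyl 4-hydroxylase subunit, was -0.75 (adjusted p = 0.41). Of 10 genes of propeptide processing and cross-linking 6 were higher (median 0.06), a share near the 8792 of 18193 over all genes, and none was called. Among them Loxl1, a lysyl oxidase, was 1.12 (adjusted p = 0.23), Pcolce, which enhances procollagen cleavage, was -0.55 (adjusted p = 0.605), and Loxl3 was -0.66 (adjusted p = 0.651). Of 16 receptors and degrading enzymes 11 were higher (median 0.10) and none was called. Itga10, the α chain of a collagen-binding integrin of chondrocytes, was -2.35 (adjusted p = 0.11), while the protease inhibitors Timp3 and Timp2 were 0.44 (adjusted p = 0.27) and 0.39 (adjusted p = 0.359).

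Of 11 other collagen genes, which are not all of fibrous tissue, 7 were higher in IVD (median 0.27), against 8792 of all 18193 genes. None was called. Col14a1, a fibril-associated collagen of fibrous tissue, was 1.14 (adjusted p = 0.273), Col16a1 was -0.71 (adjusted p = 0.48), and Col5a1, a chain of type V collagen, was 0.58 (adjusted p = 0.582). Between genotypes no gene of any of these lists was called. In mutant against control IVD, Maf, a factor that acts with Sox9 in chondrocytes, was 0.77, Cilp was 0.47 and Ucma was -1.29. They were the only genes of the 6 lists at an unadjusted p under 0.05 there (each adjusted p = 0.99989), against 3.01% of all genes. Of the 18 matrix partners 5 were higher, against 10582 of all 18193 genes.

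The 10 genes whose values over the 13 arrays were most like the mean of the 7 members included cartilage genes and others. Chadl, a leucine-rich repeat protein of cartilage, had r = 0.982 and rho 0.978, and Acan, the core protein of aggrecan, had r = 0.977 and rho 0.967. Hapln1, the link protein that ties aggrecan to hyaluronan, had r = 0.933. The rest were Arntl2 (r = 0.963), Wnk4 (r = 0.952), Polg (r = 0.933), Rflna (r = 0.93), Plcd1 (r = 0.926), Wwp2 (r = 0.925) and Wscd2 (r = 0.922). By single member, Slc35d1, a nucleotide-sugar transporter needed for cartilage proteoglycans, came first for both Col9a1 (r = 0.958) and Col11a1 (r = 0.943), and Rlbp1 came first for both Col9a2 (r = 0.949) and Col11a2 (r = 0.96). Alg1 came first for Col2a1 (r = 0.93), Mapk1ip1 for Col9a3 (r = 0.952) and Wnk4 for Col27a1 (r = 0.956). These are the highest of 18186 correlations over 13 arrays and are given as a description only.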

How the data were processed

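Tissue was captured by laser, and 50 ng of total RNA per sample was amplified in 2 cycles with oligo dT primers, labelled and hybridized. The authors normalized the arrays by RMA in GeneSpring; the deposited table holds log2 signals with each probe set's median over the 13 arrays subtracted, as every one of the 45037 probe sets has a median of 0. Levels and signal over background are therefore not known, and precision is limited by how many arrays each group has. After 64 control probe sets were left out of 45101, 34945 had 1 gene symbol in the platform annotation, 932 several and 9160 none. Probe sets with 1 symbol were averaged per gene (18193 genes). The 4 groups were fitted together with limma 3.58.1 in R 4.3.3, with Benjamini-Hochberg adjustment over all genes or all probe sets and a call at an adjusted p under 0.05, in 6 comparisons. All p-values other than those of the unequal variance test come from limma. The fit was tested on simulated data.

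Control IVD and vertebrae share mice by the series' description, which does not say which numbers belong together. Deviations from group means correlated over probe sets by 0.801, 0.569 and 0.567 between same-numbered control arrays, so their numbers were taken as pairs; those of mutants (-0.405, 0.243 and -0.146) were not. The alternatives comprised other tests, replicate blocks, quantile normalization, array weights, a single probe set per gene, covariates of other tissues and leaving out arrays. Named genes were the members, each list's called genes, otherwise up to 3 per list with the smallest p, and the genes most like the members. The members and lists were chosen with earlier results of these data known. The series' description calls the samples of each group biological replicates.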

Additional observations from a re-analysis of the deposited data

Results flagged for a closer look

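Of 23 sets of 4 arrays tested, of members or marker and pathway lists in mutant IVD, 3 held an array far from the other 3, where chance alone marks about 1 in 20. Col11a1 was -1.80 in mutant IVD 4, against -0.019 to 0.13 in the other mutant IVD arrays. The mean of the 16 receptors and degrading enzymes was 0.12 in mutant IVD 1, against -0.068 to -0.044 in the others. The mean of the 12 skeletal muscle markers was 2.37 in mutant IVD 4, against -0.18 to 0.20 in the others.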

How the results depend on the processing

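Of 1540 recomputed values 1414 were counted as the same. For a single gene this means the same sign and the same side of the threshold. For a count it means a small change. For the members' median it means a shift under its pooled SD within groups (0.494), whatever the sign. Of the rest, 35 were single genes that changed sign, 63 lost a call or gave fewer calls and 28 gained a call or gave more. The members' median kept its sign under every alternative in both tissue comparisons (-1.23 to -0.82 in mutants, -1.001 to -0.38 in controls) and ran from -1.05 to -0.65 over both genotypes, whereas in mutant against control IVD it ran from -0.48 to 0.15. It ran from 0.094 to 0.61 in mutant against control vertebrae and from -0.73 to -0.15 for the interaction.

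Over both genotypes the number of called members was 0, not 1, with array number as a fixed replicate block, the Y-linked, liver and skeletal muscle covariates, the probe set with the highest SD, without the 4 arrays with liver transcripts, and without control IVD 1 and mutant IVD 4, and 3 with the control numbers as a random replicate block; adjusted p of Col9a3 ran from 0.0045 to 0.193. The fixed block leaves mutant IVD 4, the only array of its number, without weight. The number of called genes (50) was 9 with that fixed block, 285 with the random block, 30 with the Y-linked, 15 with the muscle and 152 with the neuron covariate, 215 with array weights, 32 with quantile normalization, 80 without the liver arrays and 14 without control IVD 1 and mutant IVD 4. Leaving out 1 array gave 7 to 206 genes and 0 to 1 members. In mutants (5 genes) it was 1 with the fixed block, 54 with array weights, 9 with the liver and 51 with the neuron covariate, 8 with the highest-SD probe set, 3 with quantile normalization, 41 without the liver arrays, and 0 with the 2 groups alone, the unequal variance test, or without control IVD 1 and mutant IVD 4; leaving out 1 array gave 1 to 109. In controls (0 genes) it was 65 with a fixed and 66 with a random replicate block over control arrays, 238 with the random block over all arrays (1 member), 1 with array weights, 1 with the liver and 1 with the muscle covariate, 2 with the 2 groups alone and 3 without the liver arrays; leaving out 1 array gave 0 to 6. The causes were not tested.

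Signs changed as follows. In mutant against control IVD, Col2a1 was 0.074 with the Y-linked covariate and 0.016 with the fixed block, Col9a1 was 0.048 and 0.23 with these and 0.033 without control IVD 1 and mutant IVD 4, and Col27a1 was -5.3e-05 in the last. Array weights gave Col11a1 -0.20, Col27a1 -0.060 and Col9a3 -0.011 there, and Col11a2 -0.16 in mutant against control vertebrae. Without the liver arrays Col27a1 was -0.26 and Col9a3 -0.036. Leaving out 1 array gave -0.027 to 0.63 for Col11a1, -0.14 to 0.39 for Col27a1, -0.71 to 0.016 for Col2a1 and -0.51 to 0.23 for Col9a1 in IVD, and -0.080 to 0.53 for Col2a1 in vertebrae. In control IVD against control vertebrae Col2a1 was -0.050 with the neuron covariate, -0.040 with quantile normalization, and -0.33 to 0.28 leaving out 1 array. For the interaction, Col11a1 was 0.18 with the fixed block and 0.17 with the neuron covariate, Col27a1 was 0.21 with the highest-SD probe set and 0.0096 with quantile normalization, where Col9a3 was 0.012; leaving out 1 array gave -0.60 to 0.18 for Col11a1, -0.62 to 0.093 for Col27a1 and -0.38 to 0.059 for Col9a3.

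Same-numbered arrays of other groups were not paired: deviations correlated by 0.008, 0.371 and 0.168 between mutant and control IVD, and by -0.335, 0.265 and -0.303 between mutant and control vertebrae. The covariate of muscle markers, that of Y-linked genes, the block of control numbers over all arrays and the fit without control IVD 1 and mutant IVD 4 were chosen after seeing the data.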
